A study of Mus musculus with 4 samples.

Results

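Insig1, a sensor protein of the sterol pathway, and 7 enzymes of cholesterol synthesis (Hmgcs1, Idi1, Sqle, Lss, Cyp51, Msmo1 and Dhcr7) were followed in mouse mammary organoids measured by droplet single-cell RNA sequencing. The 8 genes were taken by name from the gene list of the count matrices and all 8 were found among its 32285 genes. Their counts of unique molecular identifiers (UMIs, each standing for 1 captured RNA molecule) were compared between epithelial lineages, between libraries, between the tagged pools of cells within a library, and between cells of the HR- luminal lineage.

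Cholesterol is built from acetyl-CoA by a long chain of enzymes, most of which are made under the control of the transcription factor SREBP2. When membranes of the endoplasmic reticulum hold little sterol, the escort protein SCAP carries SREBP2 to the Golgi, where it is cut and freed to enter the nucleus, and the Insig proteins retain SCAP in the reticulum when sterol is plentiful. Insig1 is itself a target of SREBP while Insig2 is much less so, and sterol surplus turns on the nuclear receptor LXR, whose targets, such as the exporter Abca1, remove cholesterol. In the mammary gland, luminal secretory cells make the lipids of milk, and dividing cells of any lineage need cholesterol for new membrane.

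The 4 libraries were wild-type control, wild-type HU, Brca2mut/WT control and Brca2mut/WT HU, and values are given in that order throughout. Brca2mut/WT organoids came from mice carrying a germline truncating mutation in 1 copy of Brca2, a gene needed to repair and restart broken replication forks, and wild-type organoids from their littermates, all virgin females, aged 9 to 11 months where organoids were exposed serially. HU is hydroxyurea, which starves cells of deoxynucleotides and stalls replication. It was given in each passage of culture, so organoids of a late passage had been exposed repeatedly and those of the first passage had not. Each exposure was brief and was followed by recovery without HU. Before sequencing, the organoids had been frozen, thawed, reseeded and grown again. Control organoids were untreated. All organoids grew in Matrigel from single cells of dissociated mammary glands, outside the gland's own hormonal cycle, and the lineages are those that the culture keeps. Each condition was 1 library, which the labels describe as 2 replicates, and the series describes an early and a late passage. Cells carried 1 of 4 antibody tags, but no key links a tag to a replicate or a passage. Cells with a single and with repeated HU exposure therefore cannot be separated within an HU library. With 1 library in each condition no difference between conditions can be tested. The intervals given are exact, at 95%, and cover counting error only.

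Of 33268 barcodes, 17360 had 1000 to 6000 detected genes and under 5% mitochondrial UMIs and were kept, between 3293 and 5312 in a library, with a median of 24180 to 26893 UMIs per cell. The 3 lineages were set by 1 marker level in each cell. Levels are in CPM, the UMIs of a gene for each 1000000 UMIs of the cell or class. A cell with at least 500 CPM of Krt14, a keratin of basal cells, and under 300 CPM of Areg, a growth factor of hormone-responsive cells, was called basal. A cell with at least 300 CPM of Areg and under 500 CPM of Krt14 was called HR+ luminal. A cell with less than 300 CPM of both was called HR- luminal. This gave 14008 HR- luminal, 2217 basal and 569 HR+ luminal cells, and 566 cells stayed out of all 3. Near the limits, 345 cells lay at 400 to 600 CPM of Krt14 and 105 at 240 to 360 CPM of Areg. Markers that the rule did not use followed the classes. A list of 6 HR- luminal markers summed to 22957 to 27197 CPM in its own lineage, against 1278 to 2693 CPM in the others. The basal keratin Krt5 stood at 1822 to 2861 CPM in basal cells and at most 41.7 CPM elsewhere, and the prolactin receptor Prlr at 926.7 to 1310 CPM in the HR+ luminal class, against 92.5 CPM or less elsewhere. The HR+ luminal cells also held RNA of a list of 6 stromal genes, at 703.5 to 1661.1 CPM against at most 18.9 CPM in the other lineages. In the HR+ luminal class 2 of the 6 were at 0 in all 4 libraries. Of the 569 cells, 335 had no UMI of Dcn, a gene of that list. Whether this RNA came from fibroblasts or from the HR+ luminal cells themselves was not tested. Pairs of libraries shared 16 to 30 cell barcodes. Within a library, a class was summed to 1 profile, of 71024638 to 103837852 UMIs for HR- luminal cells, 6710879 to 19147961 for basal cells and 2731245 to 4220265 for HR+ luminal cells.

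Promoter sequences are shown because SREBP2 acts on this pathway through short DNA elements, often next to boxes bound by the factor NF-Y. RefSeq windows on GRCm38.p6, 250 bases before to 50 after an annotated start, were found for 7 of the 8 genes, all but Sqle. The lines below show 4 of them: the sensor, the earliest enzyme in the chain, and the pair of later enzymes that differed most between tag pools (given further on). Capitals mark the NF-Y box CCAAT on either strand (ATTGG on the strand shown) and the sterol regulatory element TCACNCCAC, searched on both strands as well. Insig1 lies at chr5:28071162-28071461 on the plus strand, Hmgcs1 at chr13:119690101-119690400 on the plus strand, Cyp51 at chr5:4104648-4104947 on the minus strand and Msmo1 at chr8:64733529-64733828 on the minus strand, each written 5′ to 3′.
Insig1: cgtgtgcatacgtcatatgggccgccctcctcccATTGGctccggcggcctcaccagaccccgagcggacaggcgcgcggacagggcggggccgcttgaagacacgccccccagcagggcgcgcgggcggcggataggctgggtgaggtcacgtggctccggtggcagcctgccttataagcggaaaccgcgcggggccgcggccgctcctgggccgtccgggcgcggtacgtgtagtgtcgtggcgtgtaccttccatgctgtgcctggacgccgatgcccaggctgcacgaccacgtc
Hmgcs1: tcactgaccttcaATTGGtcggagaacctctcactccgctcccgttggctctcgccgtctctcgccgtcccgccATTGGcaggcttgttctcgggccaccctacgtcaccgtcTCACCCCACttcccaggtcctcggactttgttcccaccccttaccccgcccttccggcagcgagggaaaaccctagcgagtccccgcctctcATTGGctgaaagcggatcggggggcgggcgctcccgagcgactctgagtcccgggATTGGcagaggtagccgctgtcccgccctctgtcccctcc
Cyp51: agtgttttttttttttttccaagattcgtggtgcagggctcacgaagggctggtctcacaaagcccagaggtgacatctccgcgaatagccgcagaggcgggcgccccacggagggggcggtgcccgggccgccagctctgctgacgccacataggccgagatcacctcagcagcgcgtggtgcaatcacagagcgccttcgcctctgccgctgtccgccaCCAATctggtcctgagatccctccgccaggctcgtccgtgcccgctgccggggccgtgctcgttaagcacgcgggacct
Msmo1: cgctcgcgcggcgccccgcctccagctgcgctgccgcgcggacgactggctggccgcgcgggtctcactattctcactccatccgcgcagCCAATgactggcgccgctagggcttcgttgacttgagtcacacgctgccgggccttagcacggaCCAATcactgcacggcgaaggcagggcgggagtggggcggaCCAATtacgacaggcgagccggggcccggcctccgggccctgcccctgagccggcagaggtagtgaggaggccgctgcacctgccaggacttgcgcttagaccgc

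A CCAAT box lay in the windows of 7 of 7 matched members, against 41.1% of the 27025 genes with a window. Insig1, Lss and Cyp51 had 1 each, while Hmgcs1 had 4 and Msmo1 had 3. Dhcr7 had 3 windows, and only window 3 held the box. The GC box GGGCGG, bound by Sp1 and related factors, was likewise present in 7 of 7 members and in 38.2% of all genes. The sterol regulatory element in the spelling searched was found only in Hmgcs1, at 137 to 129 bases before the start, and in 1.44% of all genes. Of the 11 other synthesis enzymes with a window, 10 held a CCAAT box. So did 3 of 3 sterol uptake genes, 3 of 6 sensing genes, 3 of 6 fatty acid synthesis genes and 2 of 7 sterol efflux and LXR target genes. These are matches of letters in a window, and binding was not measured. The genes of the windows not shown, and Sqle, are annotated on GRCm38 at chr13:8885501-8892451 (Idi1), chr15:59315077-59331192 (Sqle), chr10:76531588-76557138 (Lss) and chr7:143823145-143848410 (Dhcr7), all on the plus strand.

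The lineages differed in the RNA levels of several of the enzymes and, separately, of Insig1. HR+ luminal cells had the highest levels of most of the enzymes, while Insig1 was highest in HR- luminal cells in all 4 libraries. Insig1 stood at 25.8, 28.9, 28.8 and 34.8 CPM in HR- luminal cells. The same gene stood at 13.7, 18.4, 15.2 and 19.0 CPM in HR+ luminal cells. It stood at 9.94, 15.2, 8.94 and 12.4 CPM in basal cells. The HR- luminal range thus lay wholly above the ranges of both other lineages. A gene was called higher or lower where it was at least 25% above or 20% below the other group (0.32 on the log2 scale) and the interval of the log2 ratio excluded 0. Between lineages, a call had to hold in all 4 libraries.

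Hmgcs1, which condenses acetyl groups into HMG-CoA at the entry of the pathway, stood at 119, 136, 112 and 166 CPM in HR+ luminal cells against 42.8, 49.9, 53.7 and 54.8 CPM in HR- luminal cells. Basal cells lay between at 76.3, 97.8, 82.7 and 94.3 CPM, with no overlap between the 3 lineages. Cyp51, which removes a methyl group from lanosterol, had 96.7, 77.2, 87.7 and 130 CPM in HR+ luminal cells and 34.8, 39.6, 38.0 and 40.5 CPM in HR- luminal cells. Msmo1, which oxidizes the methyl groups that remain on the sterol ring, repeated the order of Hmgcs1. It had 104, 119, 143 and 157 CPM in HR+ luminal cells, 60.7, 71.1, 64.4 and 63.2 CPM in basal cells and 30.7, 40.9, 36.2 and 40.3 CPM in HR- luminal cells. Sqle, the squalene epoxidase and a rate-limiting enzyme, had 136, 86.9, 116 and 127 CPM in HR+ luminal cells and 34.5, 38.2, 37.6 and 39.8 CPM in HR- luminal cells, again without overlap. The remaining enzymes did not divide the 2 luminal lineages so clearly. Dhcr7 ranged from 22.1 to 33.7 CPM in HR+ luminal cells and from 18.2 to 20.9 CPM in HR- luminal cells. Idi1 (98.7 to 160 and 81.0 to 105.8 CPM) and Lss (11.8 to 16.5 and 13.9 to 15.4 CPM) overlapped between the 2.

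**Figure D1:**
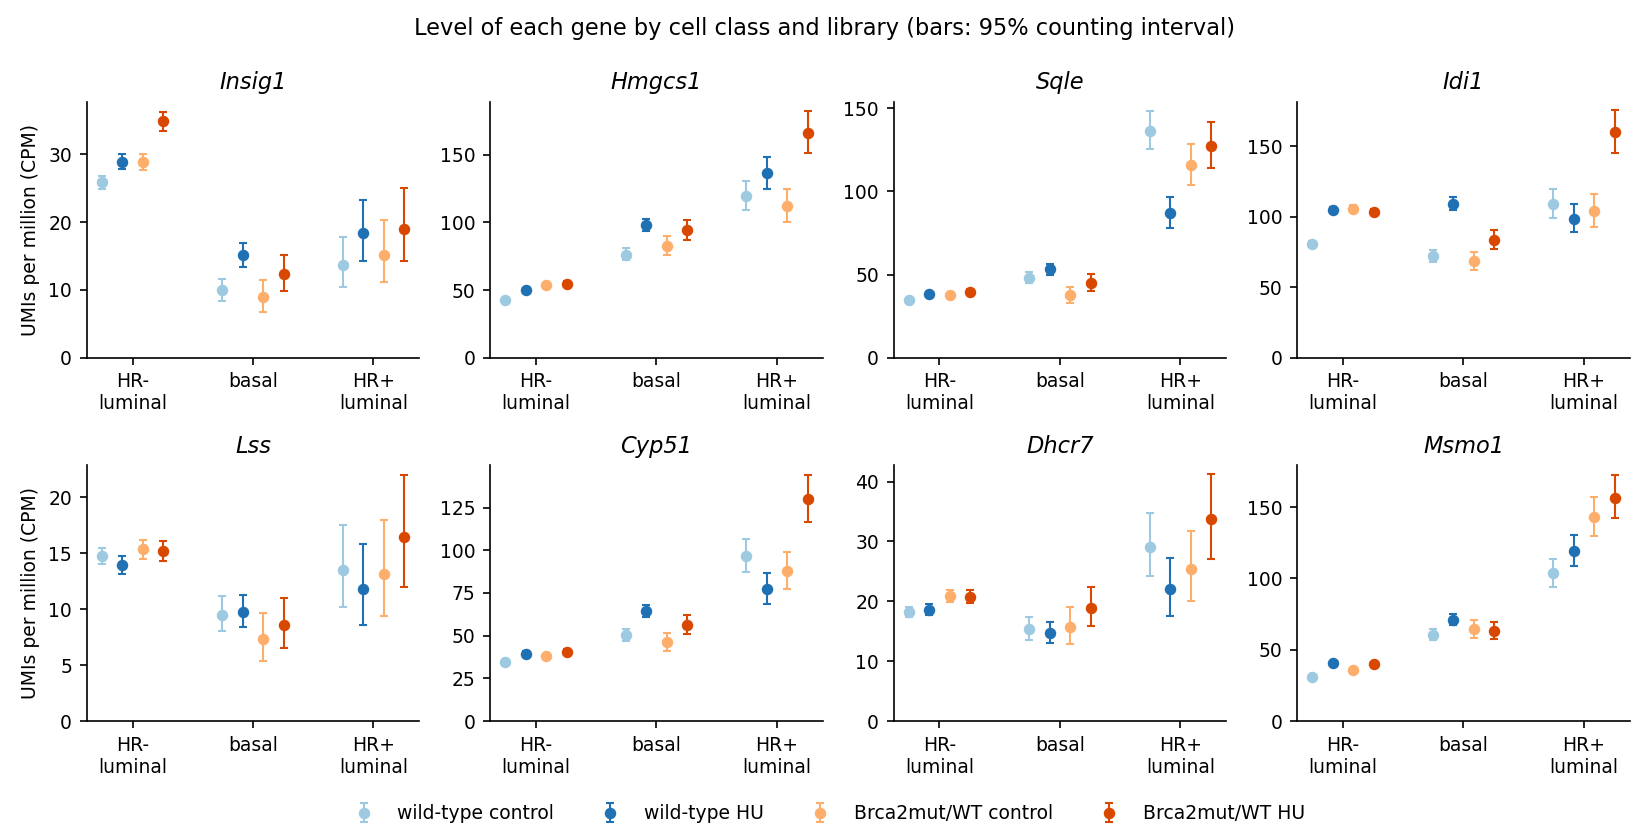
Level of each of the 8 genes (CPM, with 95% counting intervals) in HR- luminal, basal and HR+ luminal cells, with 1 point for each of the 4 libraries. The HR+ luminal points of Hmgcs1, Sqle, Cyp51 and Msmo1 lie above all HR- luminal points, and for Insig1 the HR- luminal points, at 25.8 to 34.8 CPM, lie highest.

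Against HR- luminal cells, 4 of the 8 genes were higher in HR+ luminal cells of all 4 libraries and 1 was lower, where 29.8% and 16.2% of all genes tested were. Msmo1 was 2.92- to 3.95-fold higher, Sqle 2.27- to 3.95-fold, Cyp51 1.95- to 3.21-fold and Hmgcs1 2.09- to 3.03-fold. Insig1 was the gene that was lower, by 1.57- to 1.90-fold. Idi1, which isomerizes isopentenyl diphosphate, Lss, which closes squalene epoxide into lanosterol, and Dhcr7, which carries out a final reduction to cholesterol, did not pass, with log2 ratios of -0.08 to 0.63, -0.24 to 0.12 and 0.24 to 0.70. The median log2 ratio of the 8 genes was 0.90, against 0.19 over all genes. TMM scaling, which sets that background near 0, shifted every ratio of this comparison by -0.28 to -0.21 and changed none of the 5 calls. Averaging CPM over cells instead of summing UMIs left Insig1 uncalled. In HR+ luminal cells with no Dcn UMI the same 5 calls were made, with Dhcr7 added as higher.

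The other enzymes leaned the same way, and the sensing genes were mixed. Of 14 other synthesis enzymes tested, 7 were higher in HR+ luminal cells and 0 lower, among them Ebp, a sterol isomerase (log2 ratio 0.94 to 1.59), and Fdft1, the squalene synthase (1.02 to 1.28). Of 5 other sensing and SREBP processing genes tested, 1 was higher and 1 lower. Insig2 was higher in HR+ luminal cells by 1.33 to 1.88 on the log2 scale, opposite to Insig1. Srebf1, which encodes the SREBP form that drives fatty acid synthesis, was lower by 1.24 to 1.82, and of 8 fatty acid synthesis genes 4 were lower and only Acly was higher. Of 4 efflux and LXR target genes tested, 2 were lower, and Abca1 was at log2 ratios of -1.33 to -0.82.

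Between basal and HR- luminal cells, the 8 genes had no common direction, and the counts called were near the shares of all genes. Of the 8 genes, 2 were higher in basal cells and 2 lower in all 4 libraries, where 25.9% and 16.9% of all genes were. Hmgcs1 was 1.54- to 1.96-fold and Msmo1 1.57- to 1.98-fold higher. Insig1 was 1.91- to 3.22-fold lower, and Lss, at 9.49, 9.77, 7.30 and 8.56 CPM in basal cells against 14.7, 13.9, 15.4 and 15.2 CPM in HR- luminal cells, was 1.43- to 2.10-fold lower. Idi1, Sqle, Cyp51 and Dhcr7 did not pass in all 4 libraries. The median log2 ratio of the 8 genes was 0.01, against 0.11 over all genes. Outside the 8, the LXR targets stood apart from HR+ luminal cells: 3 of 4 tested were higher in basal cells, Abca1 by 0.77 to 1.46 and Apoe, a lipoprotein component, by 3.12 to 3.93 on the log2 scale.

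The lineage differences were also read within tagged pools. Here only the sign of the log2 ratio was counted, without the limit or the interval of a call. Among 15 pools with at least 10 cells of both classes, Insig1 and Lss had negative ratios of basal to HR- luminal cells in 15. Hmgcs1 and Msmo1 had positive ratios in 14. The ratio of Lss reached -0.02 in 1 pool. Among 8 such pools for HR+ luminal cells, Hmgcs1, Sqle, Cyp51 and Msmo1 had positive ratios in 8, and Insig1 had negative ratios in 7. The share of all genes with the same sign was not taken within pools.

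Insig1 and Insig2 share the task of retaining SCAP, so the share of their joint UMIs that came from Insig1 was taken as a measure within each library; it was chosen after the levels had been seen. In HR- luminal cells the share was 37.5% (interval 36.3 to 38.6) in the wild-type control and 44.0% (42.7 to 45.3) in the wild-type HU library. It was 38.3% (37.1 to 39.5) in the Brca2mut/WT control and 48.1% (46.7 to 49.4) in the Brca2mut/WT HU library. Both HU libraries lay above both control libraries, by 6.58 percentage points in wild type and 9.77 in Brca2mut/WT. In basal cells the shares were 15.0, 27.6, 13.5 and 21.8%, and the HU libraries again lay above the controls, by 12.6 and 8.30 points. In HR+ luminal cells the shares were 11.3, 13.2, 8.3 and 12.1%, with overlapping intervals, and in wild type the sign turned when tag pool 4 of either library was left out.

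In HR- luminal cells the ratios of the 2 genes were small and of opposite sign. Insig2 stood at 43.2, 36.7, 46.5 and 37.6 CPM, lower in the HU library of each genotype, with log2 ratios of -0.23 (-0.30 to -0.17) and -0.30 (-0.37 to -0.23). Insig1 was higher in the HU library, by 0.16 (0.08 to 0.24) in wild type and 0.27 (0.19 to 0.35) in Brca2mut/WT. Neither gene reached the limit for a call in either genotype. Intervals wholly above 0 were common, at 37.4% of all genes tested in wild type and 29.6% in Brca2mut/WT. Taken pool by pool, the Insig1 share in HR- luminal cells was higher with HU in 4 of 4 tag pools of both genotypes. The intervals were apart in 2 pools of wild type and 3 of Brca2mut/WT. The Insig1 level itself was higher with HU in 3 of 4 pools of wild type, with 1 interval above 0. In pool 2 of wild type it was lower, at -0.52 (-0.74 to -0.30). In Brca2mut/WT the Insig1 level was higher in 4 of 4 pools, with 2 intervals above 0. Whether tag pools of the same number hold matching cells in different libraries is not given.

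Between libraries, the synthesis genes themselves differed little in HR- luminal cells. With HU in wild type, 2 of the 8 genes were called, both higher, where 3.30% of all genes were higher and 8.22% were called in either direction. Idi1 went from 81.0 to 104.6 CPM, which is 1.29-fold (log2 0.37, interval 0.33 to 0.41), and Msmo1 from 30.7 to 40.9 CPM, which is 1.33-fold (0.41, 0.34 to 0.48). With HU in Brca2mut/WT, 0 of the 8 genes were called, where 2.44% of all genes were higher and 6.11% were called in either direction. Idi1 was at 105.8 and 103.4 CPM there. The difference between the genotypes in the size of the HU ratio was not tested, since there was 1 library in each condition.

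In the control libraries, 2 of the 8 genes were called, both higher in Brca2mut/WT than in wild type, where 3.39% of all genes were higher and 5.06% were called in either direction. These were Hmgcs1, from 42.8 to 53.7 CPM (log2 0.33), and Idi1, from 81.0 to 105.8 CPM (log2 0.39). In the HU libraries 0 of the 8 genes were called between genotypes, where 2.74% of all genes were higher and 3.99% were called in either direction. Both comparisons with calls share the wild-type control library, in which all of the 8 genes but Lss were at their lowest. The median log2 ratios of the 8 genes were 0.17, 0.06, 0.18 and 0.09 in the 4 comparisons in the order given, against 0.02, 0.01, 0.06 and 0.05 over all genes.

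**Figure D2:**
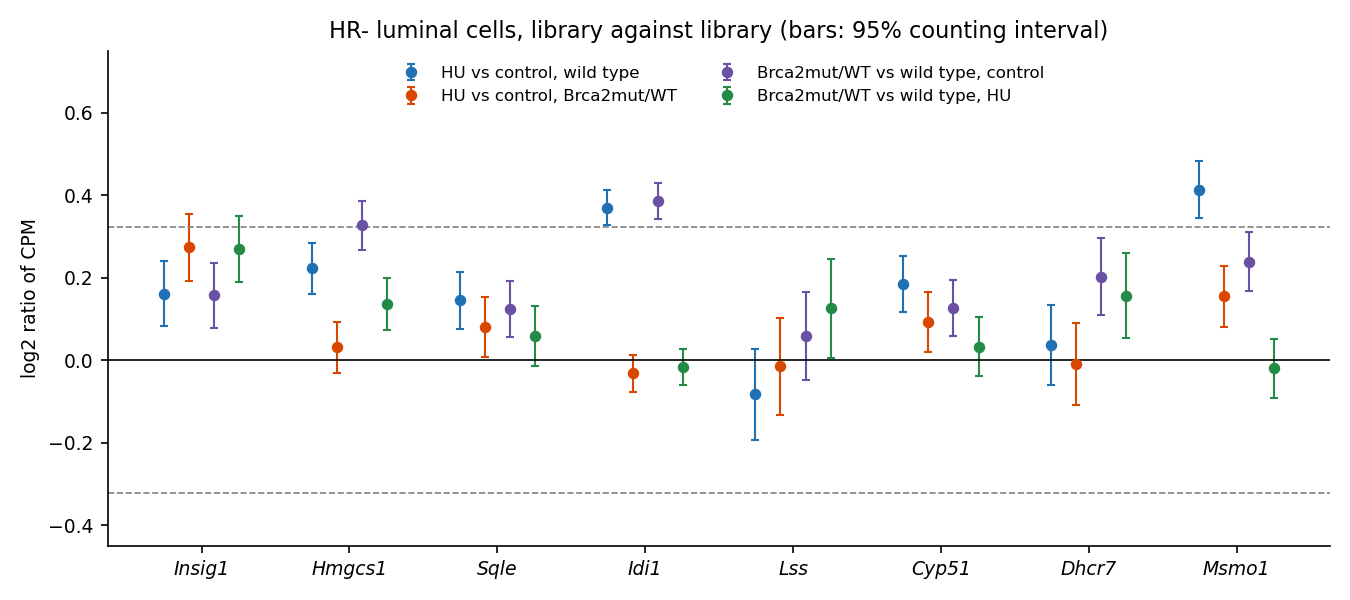
Log2 ratios between libraries (with 95% counting intervals) of the 8 genes in HR- luminal cells, for HU against control in each genotype and for Brca2mut/WT against wild type in each treatment, with dashed lines at the limit for a call. Idi1 and Msmo1 pass the limit with HU in wild type, and Hmgcs1 and Idi1 pass it between the control libraries.

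These library calls depended on which cells were counted. The upper limit on detected genes removed large cells: 1435, 1044, 1494 and 1808 further HR- luminal cells entered when it alone was lifted, and they carried 43.1 to 63.8% of the UMIs of the widened class. Their summed level of the 8 genes was 458 to 555 CPM, against 283 to 350 CPM in the cells kept, and their cycling genes were at 649.6 to 808 CPM against 134 to 194 CPM. Between 4.31 and 13.2% of them carried at least 2 tags. With them, the counts of genes called higher in the 4 comparisons became 0, 2, 0 and 2, where Insig1 and Msmo1 were the genes higher with HU in Brca2mut/WT (log2 0.59 and 0.35) and Insig1 and Dhcr7 those higher in Brca2mut/WT with HU (0.58 and 0.37). The HU difference of the Insig1 share in HR- luminal cells became 4.47 points in wild type and 15.4 in Brca2mut/WT. With the mitochondrial limit alone set to 10%, which let in 231 to 458 cells in a library, the counts were 2, 0, 1 and 0. With the 4 tag pools given equal weight, the counts were 0, 2, 0 and 0. In every one of these settings no gene was called lower. The share of all genes called was not taken in these settings, so the counts have no background beside them.

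Basal cells were compared after the values had been seen. Lss, under 10 CPM there, was not tested, which left 7 genes. With HU in wild type 4 of the 7 were called, all higher, where 11.2% of all genes were higher and 21.9% were called in either direction. Insig1 went from 9.94 to 15.2 CPM, a log2 ratio of 0.61 (0.32 to 0.90), and Idi1 from 72.4 to 109 CPM, a ratio of 0.59. Hmgcs1 went from 76.3 to 97.8 CPM (0.36) and Cyp51 from 50.5 to 64.4 CPM (0.35). The pools differed between these libraries: tag pools 1 to 4 held 111, 57, 112 and 336 basal cells in the control and 112, 421, 90 and 159 with HU. Leaving out 1 tag pool at a time, the ratio ran from 0.43 to 0.67 for Insig1 and from 0.51 to 0.85 for Idi1. It ran from 0.29 to 0.52 for Hmgcs1 and from 0.26 to 0.59 for Cyp51, whose lowest values were under the limit for a call. In Brca2mut/WT 0 of the 7 genes tested were called, where 7.60% of all genes were higher and 14.1% were called in either direction. The ratios there were 0.47 for Insig1, with an interval of -0.02 to 0.96, 0.28 for Idi1, 0.19 for Hmgcs1 and 0.28 for Cyp51. With 320 basal cells in each Brca2mut/WT library, an Insig1 difference of this size was at the edge of what the counts could show.

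The tagged pools within a library differed more than the libraries did. In HR- luminal cells, Cyp51 stood at 27.7, 77.6, 27.8 and 61.4 CPM in tag pools 1 to 4 of the wild-type control library. It stood at 37.0, 51.8, 31.3 and 62.4 CPM in wild-type HU. The Brca2mut/WT control library gave 28.0, 58.3, 32.8 and 44.5 CPM, and Brca2mut/WT HU gave 38.0, 64.9, 33.7 and 51.5 CPM. Pools 2 and 4 lay above pools 1 and 3 in each of the 4 libraries, and the same division held for Sqle, Idi1 and Msmo1, though the intervals of Idi1 in pools 1 and 4 of Brca2mut/WT HU overlapped. That is 4 of the 8 genes, where 28.2% of all genes tested divided this way in all 4 libraries. Hmgcs1 and Dhcr7 divided so in 3 libraries, Insig1 in 1 and Lss in none.

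Pools 2 and 4 together were above pools 1 and 3 together by 1.63- to 2.40-fold for Cyp51, 1.72- to 2.28-fold for Msmo1, 1.49- to 1.95-fold for Idi1 and 1.43- to 1.73-fold for Sqle. Lss differed by 1.03- to 1.09-fold only, and Insig1 by 1.09- to 1.68-fold. Msmo1, for example, was at 24.9, 65.1, 24.8 and 51.6 CPM in the 4 pools of the wild-type control library. Insig1 was at 24.6, 42.6, 23.3 and 29.9 CPM there, and in wild-type HU at 32.6, 29.7, 25.3 and 34.0 CPM, where the pools overlapped. Among the other lists, 6 of 15 further synthesis enzymes, 2 of 6 sensing genes, 1 of 9 fatty acid genes, 0 of 6 uptake genes and 0 of 4 efflux genes divided this way in all 4 libraries. Pools 2 and 4 held 15.0, 25.0, 31.2 and 19.6% of the HR- luminal cells of the 4 libraries. The share of cycling cells (at least 200 CPM of a list of cycling genes) ranged from 4.80 to 19.95% of a pool. It was higher in pools 2 and 4 than in pools 1 and 3 of every library. The summed CPM of that list divided so only in Brca2mut/WT HU, at 129.8, 205.7, 76.5 and 151.7 CPM in pools 1 to 4. In wild-type HU it was highest in pool 1, at 215.5, 140.6, 127.4 and 151.3 CPM. In non-cycling cells alone, 3 of the 4 genes divided this way in all 4 libraries, and the share of all genes was not taken there. Whether the tags mark replicate, passage or another source cannot be told apart here.

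**Figure D3:**
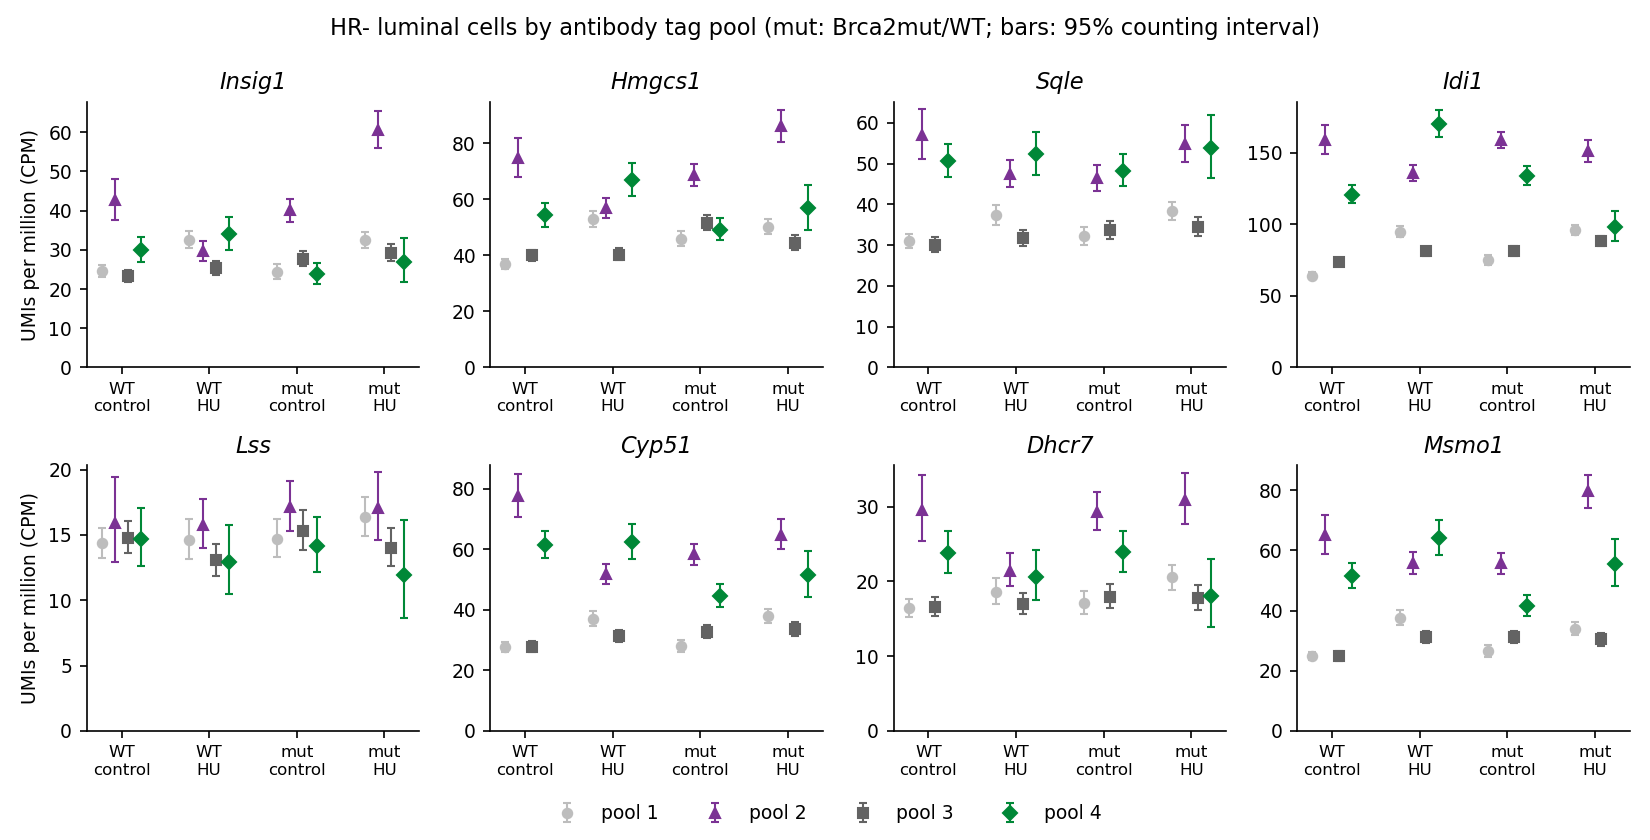
Level of the 8 genes (CPM, with 95% counting intervals) in HR- luminal cells of tag pools 1 to 4 in each of the 4 libraries. Pools 2 and 4 lie above pools 1 and 3 for Sqle, Idi1, Cyp51 and Msmo1 in every library, whereas Lss is nearly level.

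Because pools enter the 4 libraries in different shares, the library ratios were also taken within pools of the same number. With HU in wild type, 8, 0, 7 and 6 of the 8 genes had a positive log2 ratio in pools 1, 2, 3 and 4. With HU in Brca2mut/WT the counts were 8, 6, 4 and 5. Between genotypes they were 7, 2, 8 and 2 in the control libraries and 5, 8, 7 and 1 in the HU libraries. No comparison had 1 direction over all 8 genes and all 4 pools. The share of all genes with a positive ratio was not taken within pools. Over all HR- luminal cells it was 54.2, 53.5, 69.9 and 65.2% in the 4 comparisons, in the order given.

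Within HR- luminal cells, the 8 genes were all higher in cells with cell cycle RNA. Cells with at least 200 CPM of a list of cycling genes numbered 379, 288, 403 and 276, and 87 to 133 cells in a library lay at 160 to 240 CPM. Between these and the other HR- luminal cells, 8 of 8 genes were higher in all 4 libraries, where 21.0% of all genes were, and 0 of 8 were lower, where 6.32% were. The median log2 ratio of the 8 genes was 0.81, against 0.11 over all genes. Cyp51 was at 69.4, 74.7, 67.8 and 83.3 CPM in cycling cells against 31.7, 36.7, 34.9 and 37.1 CPM in the others, which is 1.94- to 2.24-fold. Insig1 was at 44.0, 40.7, 44.4 and 56.3 CPM against 24.2, 27.9, 27.2 and 33.1 CPM, which is 1.46- to 1.82-fold. Neither gene overlapped between the groups of cells.

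Idi1 was 1.79- to 2.29-fold higher in cycling cells, Sqle 1.56- to 1.93-fold, Dhcr7 1.56- to 1.99-fold, Msmo1 1.35- to 2.00-fold and Lss 1.28- to 1.74-fold. Fdps, which makes farnesyl diphosphate, was also higher in all 4 libraries. Insig2, Srebf2, which encodes SREBP2, and Fasn, the fatty acid synthase, were not called. Abca1 was lower, at 5.1, 2.4, 2.5 and 3.5 CPM in cycling cells against 15.8, 15.0, 12.6 and 17.5 CPM in the others. The cycling cells kept had a median of 20142 to 25401 UMIs, against 24711 to 28019 in the others, and among cells with at least 10000 UMIs 8 of 8 genes were again higher. Cycling cells were a larger share of tag pools 2 and 4, so the ratios were also taken within the larger pools. From 500 CPM of the cycling list 7 of 8 genes were higher in all 4 libraries, all but Lss. In tag pool 1 alone 5 of 8 genes were higher in all 4 libraries, and in tag pool 3 alone 6 of 8. The share of all genes was not taken in these settings. Insig1 was 1.46- to 1.83-fold higher in pool 1 and 1.41- to 1.83-fold in pool 3. Msmo1 was at 0.70 to 1.96 times in pool 1, with a ratio above 1 in 2 of 4 libraries, and Lss at 0.85 to 2.05 times, above 1 in 3.

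**Figure D4:**
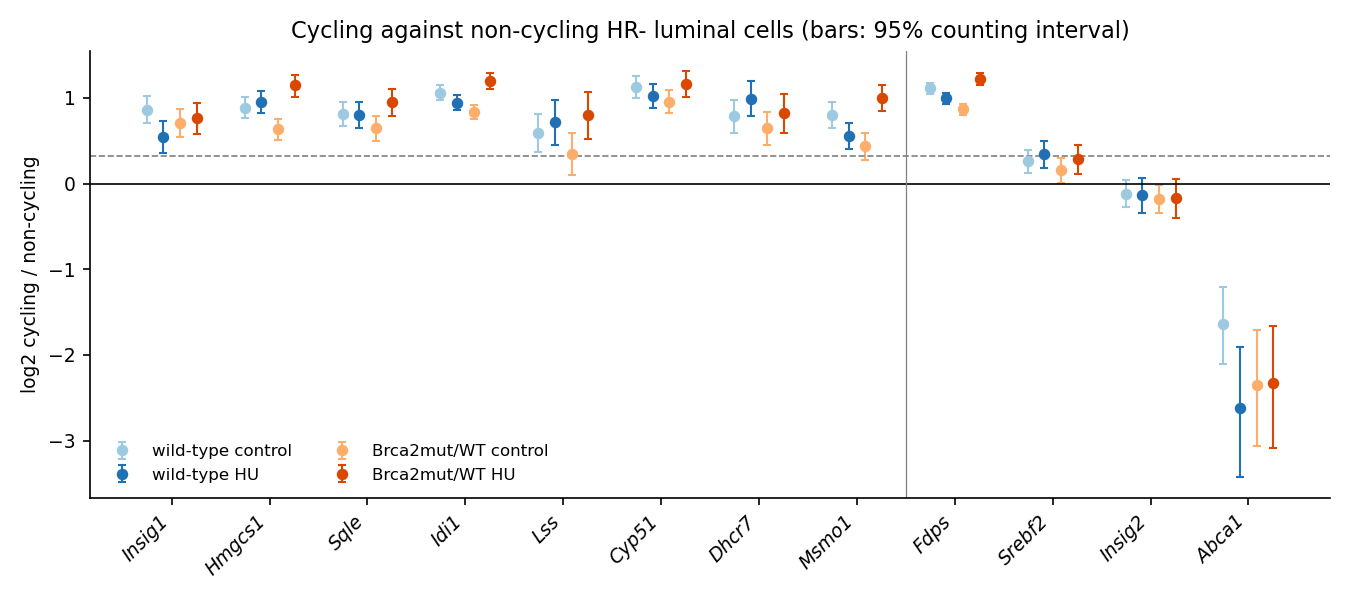
Log2 ratio of cycling to non-cycling HR- luminal cells (with 95% counting intervals) for the 8 genes and, right of the vertical line, for 4 other sterol genes, with 1 point for each of the 4 libraries. All 8 genes lie above 0 in every library, and Abca1 lies below.

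Over all HR- luminal cells, the 8 genes differed less with milk protein RNA than with cell cycle RNA. Between HR- luminal cells with at least 300 CPM of Lalba, a whey protein made by secretory cells, and those under 50 CPM, 0 of 8 genes were higher and 0 lower in all 4 libraries, where 0.986% and 5.44% of all genes were. Insig1 was 1.17- to 1.31-fold and Lss 1.21- to 1.36-fold higher in the Lalba-high cells, without reaching the limit in every library, and Msmo1 lay at 0.84 to 1.09 times. The median log2 ratio of the 8 genes was 0.20, against -0.10 over all genes. The share of Lalba-high cells differed between pools, from 4.38 to 33.7%. Within tag pool 1, and within tag pool 3, 2 of the 8 genes were higher in all 4 libraries, and Idi1 was so in both, by 1.27- to 1.59-fold and 1.43- to 1.58-fold. The share of all genes was not taken within pools. Ratios were above 1 in all 4 libraries for all 8 genes in pool 1, and for all but Cyp51 in pool 3. Msmo1 lay at 1.07 to 1.27 times in pool 1 and 1.06 to 1.45 times in pool 3. The part of the pool shares in the lower ratios over all cells was not tested.

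From cell to cell, Insig1 followed the enzymes and Insig2 did not. HR- luminal cells were thinned to 5000 UMIs each, and sorted by the summed UMIs of the 7 enzymes. Cells with fewer UMIs, 124, 122, 288 and 198 in the 4 libraries, were left out, and 13276 cells remained. In cells with 0 enzyme UMIs, Insig1 was at 13.2, 12.7, 17.2 and 14.4 CPM. In cells with 4 or more, it was at 55.8, 55.2, 66.1 and 78.5 CPM. The levels between rose in each library: 21.0, 25.6, 22.9 and 22.1 CPM with 1 enzyme UMI, and 38.8, 30.9, 31.7 and 45.4 CPM with 2 or 3. Insig2 stayed between 36.9 and 50.7 CPM in all of these bins and libraries. Abca1 went the other way, from 24.9, 28.5, 23.5 and 30.5 CPM to 4.1, 2.8, 2.6 and 2.9 CPM. The bins share the library and the fixed depth, and the UMIs of all genes in a cell compete for the same 5000, so they are descriptions.

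**Figure D5:**
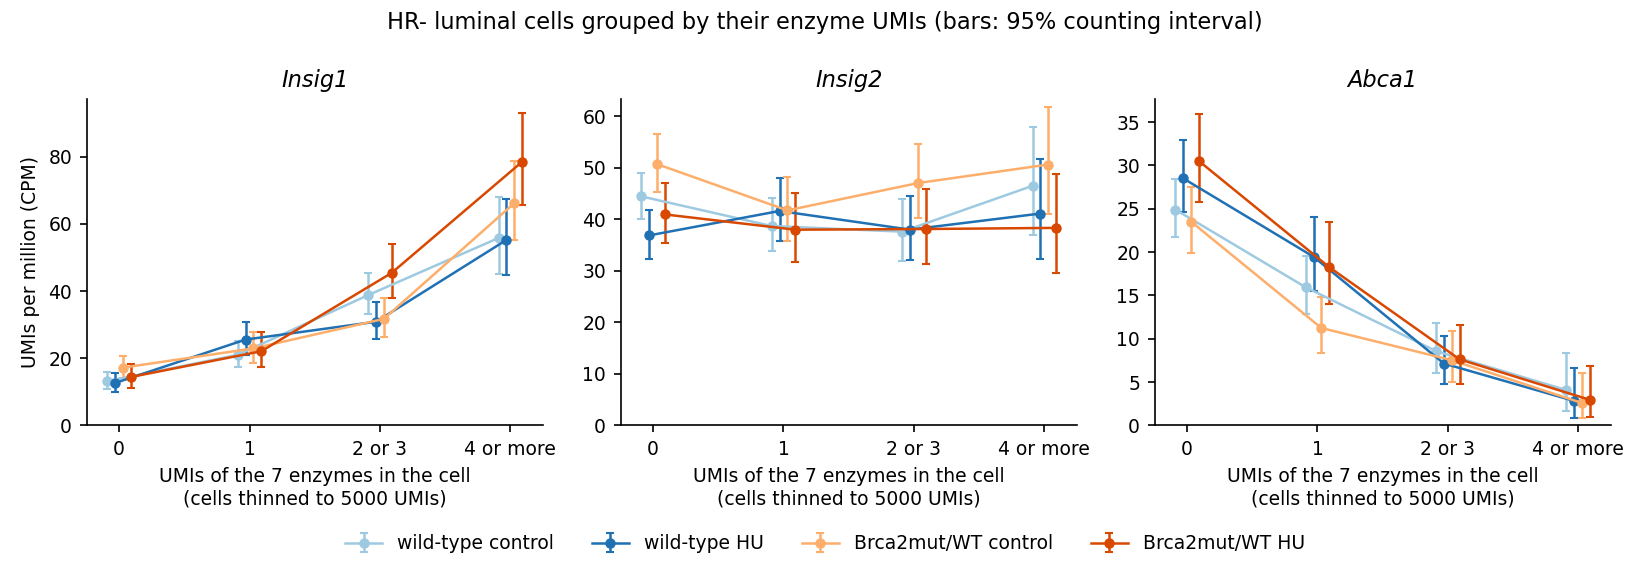
Level of Insig1, Insig2 and Abca1 (CPM of cells thinned to 5000 UMIs, with 95% counting intervals) against the summed UMIs of the 7 enzymes in the same cell, for HR- luminal cells of the 4 libraries. Insig1 climbs from 12.7 to 17.2 CPM at 0 enzyme UMIs to 55.2 to 78.5 CPM at 4 or more, Insig2 stays level and Abca1 falls.

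The same cells were used to ask which genes followed the 8 most closely. The log count of each of 6988 genes was correlated, across thinned cells within a library, with the log of the summed UMIs of the 8 genes. A gene of the 8 was left out of its own sum. The correlations were averaged over the 4 libraries. The median over all genes was 0.01 and the 99th percentile 0.16. Idi1 was at 0.31, Hmgcs1 at 0.27, Cyp51 at 0.26, Msmo1 at 0.24, Insig1 and Sqle at 0.19, and Lss and Dhcr7 at 0.10. Lss and Dhcr7 had a UMI in as few as 6.0 and 7.8% of the thinned cells of a library. The values depend on depth: with cells thinned to 10000 UMIs all 8 were higher, among them Insig1 at 0.29, Dhcr7 at 0.19 and Lss at 0.16. These are correlations over cells that share libraries and depth, and they carry no p.

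Fdps, which joins the products of the Idi1 step into farnesyl diphosphate, followed the 8 genes most closely of all genes measured, at 0.43. The 12 leading genes outside the 8 included Fdps, Ppia (0.31), Atp5g1 (0.28), Pmvk (0.26), Stmn1, H2afz, Dbi, Txn1, Folr1 and Fabp5, the last at 0.22. Pmvk is a kinase of the mevalonate steps of the pathway. Stmn1 and H2afz are genes of dividing cells and Ppia, Atp5g1 and Txn1 are expressed in most cells. Without the cycling cells, 8 of the 12 remained among the first 12, and Stmn1 and H2afz fell to ranks 52 and 68. Srebf2 was at 0.10, whereas Insig2 was at -0.01, Srebf1 at -0.07 and Abca1 at -0.14. Among the 8 genes, 27 of the 28 pairs correlated positively in all 4 libraries, and the pair of Cyp51 and Dhcr7 in 3. The highest pair, Hmgcs1 and Idi1, was at 0.20, and the lowest, Lss and Msmo1, at 0.03. How many pairs of all genes correlate positively in this way was not counted.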

How the data were processed

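The deposited values were UMI counts, whole numbers per gene and cell without normalization, which the authors made with Cell Ranger (6.0.2 per the labels, 6.1.1 in the matrix headers) from 10x libraries on mm10. The study's own analysis used Seurat 4.0 and R 4.1.3. The 4 antibody tags were kept out of all gene totals. A cell was placed in a tag pool where exactly 1 tag had at least 100 UMIs and at least 20% of its tag UMIs. This held for 15641 cells kept, while 1571 had no such tag and 148 had at least 2. Doublets were not called, and cells with several tags were left out in an alternative.

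For each library and class, counts were added over cells and divided by the class total (CPM). Genes of at least 10 CPM in either profile were compared, with exact Poisson intervals on levels, exact conditional binomial intervals on ratios and Clopper-Pearson intervals on shares. A call needed a level at least 25% above or 20% below the other and a log2 interval that excluded 0. With 1 library per condition there is no test and no p-value, and a call says nothing about replicate spread. Cells were thinned to 5000 UMIs for bins and correlations. Named genes were the 8 genes, members of the pathway lists, and the 12 genes outside the 8 with the highest correlation. Some genes that the rule names are not reported here. The 8 genes and the lists were chosen with earlier results of these data known. The script was tested on simulated data. Promoter windows were taken from RefSeq on GRCm38.p6. Tools were Python 3.11.15, numpy 2.4.6, scipy 1.17.1, pandas 2.3.3, matplotlib 3.10.9 and, for TMM factors, edgeR 4.0.16 in R 4.3.3. Alternatives changed the filters, the class rules, the scaling, the fold limit, the thinning and the tag pools.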

Additional observations from a re-analysis of the deposited data

How the results depend on the processing

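With 1 library per condition, calls cover counting error only, and the depth of the HR+ luminal class (123 to 176 cells in a library) limits its values most. No paired analysis was possible because each condition is 1 library and no key links the tags to replicates. The alternatives that used tag pools, the 2 filter limits lifted singly, the basal comparison, the Insig1 share and the HR+ luminal cells without Dcn were chosen after the data were seen.

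Some lineage, cycling and correlation counts changed. At a fold of 1.5, 1 gene instead of 2 was lower in basal cells, and on the mean of per-cell CPM 0 instead of 1 was lower in HR+ luminal cells. In tag pool 1 alone, 5 instead of 8 genes were higher in cycling cells (6 in tag pool 3, 7 from 500 CPM), Msmo1 and Lss turned in 2 and 1 of the 4 libraries, 7 of the 12 leading correlated genes were shared, and 2 instead of 0 genes were higher in Lalba-high cells, as also in tag pool 3.

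The library counts in HR- luminal cells moved more. Without the upper gene limit, alone or with a mitochondrial limit of 10%, the genes higher numbered 0 (HU, wild type), 2 (HU, Brca2mut/WT), 0 (genotype, control) and 2 (genotype, HU). With equal weight for tag pools, the first 3 were 0, 2 and 0. Genotype in control gave 1 with a mitochondrial limit of 10% alone, with at least 5000 UMIs, with Krt5 and Prlr classes, with TMM and with median-of-ratios scaling. At a fold of 1.5, HU in wild type and genotype in control gave 0 each. Leaving out 1 tag pool at a time, these counts ran from 0 to 4, 0 to 2, 0 to 3 and 0 to 1, and the genes lower from 0 to 0. The count for HU in wild type was 0 without tag pool 1 or 3 of the wild-type control or without tag pool 2 of wild-type HU, 4 without its tag pool 3 and 1 without its tag pool 4. The genotype count in control was 0 without tag pool 1 or 3 of the wild-type control and 1 without tag pool 4 of the Brca2mut/WT control. Without tag pool 2 of the Brca2mut/WT control, the genotype count in control was 0 and the count for HU in Brca2mut/WT was 2. The latter was 1 without tag pool 1 and 2 without tag pool 3 of Brca2mut/WT HU, and the genotype count in HU was 1 without either of these or without tag pool 1 of wild-type HU. The Insig1 share in HR+ luminal cells of wild type turned to -0.56 points with HU without tag pool 4 of the control library and to -0.42 without tag pool 4 of the HU library, in a range of -0.56 to 10.2 over the pools left out. The share of all genes called was not taken in the alternatives. The cause of these changes was not tested.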
